A study of Homo sapiens with 4 samples.

Results

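The cystatins are small proteins that block cysteine proteases, and 5 of their genes, CST1, CST3, CST4, CST6 and CSTB, were followed in A549 cells, a human lung adenocarcinoma line. They were read by gene symbol from a table of read counts for 57905 genes in 4 RNA-sequencing libraries. Of the 5 genes, 3 (CST1, CST3 and CSTB) reached a mean of at least 1 CPM (counts per 1000000 of the scaled library total) over the 4 libraries, as did 13966 genes of the whole table. CST4 and CST6 did not reach this level. The genes were selected on their levels and ratios in these same libraries, known from an earlier analysis, so every ratio given here is a description and carries no test.

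Cystatins bind in the active-site cleft of papain-like cysteine proteases, the cathepsins, and some also block legumain. Cathepsins digest proteins in lysosomes and, once secreted, can cut the extracellular matrix. CSTB (stefin B) has no signal peptide and acts inside the cell. The other 4 are secreted: CST3 (cystatin C) is made by most cell types, CST1 (cystatin SN) and CST4 (cystatin S) are known from saliva and tears, and CST6 (cystatin E/M) is known from skin.

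The study asked how DCBLD2, a transmembrane protein, acts on migration and epithelial-mesenchymal transition. Each of the 4 conditions was a single library of poly(A) RNA from transduced A549 cells: a scramble hairpin control (sc), a hairpin against DCBLD2 (shDCBLD2), an empty vector, and a vector for DCBLD2 overexpression. The study's methods describe lentiviral vectors packaged in a human embryonic kidney line, a puromycin cassette in the hairpin vector, and an EF1 promoter with blasticidin selection in the expression vector. Which hairpin the shDCBLD2 library carries was not given in the sources used here. DCBLD2 itself had 9859 counts in sc, 4259 in shDCBLD2, 7970 in the empty vector library and 4000 under the DCBLD2 overexpression label, or 504, 197, 434 and 242 CPM. The last value goes against its label, at 0.558 times the empty vector (95% interval 0.537 to 0.580), and that library is called by its label throughout. Directions drawn from that library rest on this label. The comparisons among the other 3 libraries do not use the label, though the scaling and the level filter drew on all 4 libraries.

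Library totals were between 16601633 and 21537283 counts, the largest 1.3 times the smallest. With 1 library per condition there is no replicate spread, so intervals cover counting error only and no p-value is given. A count of 0 allows a level of up to 0.139 to 0.182 CPM, the value of 3 counts, depending on the library. A gene was called higher or lower where the fold was 2 or more and the 95% interval left out no change. Of the 7 listed markers of A549-like cells, 7 were above 3 counts in every library, with summed levels between 1.52e+04 and 2.51e+04 CPM.

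The coding sequences show which of these genes can be told apart by short reads. CST1 shares 92.7% of its coding bases with CST4 and 91.3% with CST2, another salivary cystatin gene, but 69.6% with CST3, 47.2% with CST6 and 39.6% with CSTB. The following stretch is shown because it is the part of exon 2 where CST1, CST2 and CST4 cannot be separated. It covers coding bases 274 to 333 of CST1 on the minus strand (GENCODE 29 on GRCh38: CST1 at chr20:23749025-23749084, CST2 at chr20:23825219-23825278, CST4 at chr20:23687097-23687156, CST3 at chr20:23635263-23635322), and capitals mark bases that differ from CST1.
CST1: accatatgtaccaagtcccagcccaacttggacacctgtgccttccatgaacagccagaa
CST2: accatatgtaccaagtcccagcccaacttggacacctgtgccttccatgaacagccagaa
CST4: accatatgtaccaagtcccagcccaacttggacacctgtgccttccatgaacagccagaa
CST3: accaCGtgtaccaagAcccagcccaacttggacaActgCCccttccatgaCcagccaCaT
CST1, CST2 and CST4 were identical over these 60 bases, while CST3 differed at 9 of them. A read lying wholly inside this stretch could come from any of the first 3 genes. Over the whole CST1 transcript of 760 bases, 27.3% of all 50-base windows, 14% of 75-base windows and 8.02% of 100-base windows occurred unchanged in a transcript of another gene, always CST2, CST4 or CST5. No window of these lengths in CST3, CST6 or CSTB did so.

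CST1, the gene of cystatin SN, had by far the widest spread of the 5 genes. It had 50 counts in sc, 3 in shDCBLD2, 7 in the empty vector library and 218 under the overexpression label. Scaled by TMM factors (trimmed mean of M values), these are 2.56 CPM (95% interval 1.9 to 3.37), 0.139 CPM (0.0287 to 0.406), 0.381 CPM (0.153 to 0.786) and 13.2 CPM (11.5 to 15.1). The labelled overexpression library was thus highest and sc second, each clear of the rest, while the intervals of shDCBLD2 and the empty vector overlapped. The highest level was 95 times the lowest, and 99.6% of the 13966 genes had a smaller range over the 4 libraries. The lowest of the 4 rests on 3 counts. Over the other 3 libraries its mean was 1.03 CPM, so CST1 passed the filter on those libraries alone.

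Against the empty vector, CST1 was 34.6-fold higher in the library labelled DCBLD2 overexpression (95% interval 16.5 to 87.2). On the log2 scale with a prior count of 2 the ratio was 4.77 (4.05 to 6.45), and 70 of the 13966 genes had a higher one. In this comparison 1 of the 3 counted cystatins was called, beside 11.8% of all genes, of which 6.42% higher, as CST1, and 5.35% lower. The 1644 genes called were higher in 54.6% of cases, or in 69.2% of 1570 calls with upper-quartile scaling, which moves the median log2 ratio of all genes from -0.04 to 0.08. Relative to that median the CST1 ratio was 4.82 under either scaling.

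In shDCBLD2 the level of CST1 was 0.0544 times that in sc (95% interval 0.0109 to 0.168). The log2 ratio was -3.45 (-6.53 to -2.57), and 15 genes had a lower one. Here too CST1 was the 1 cystatin called, beside 6.78% of all genes, of which 5.62% lower, as CST1, and 1.16% higher. Genes called higher in the labelled overexpression library and lower in shDCBLD2, as CST1 was, made up 2.17% of the genes (303).

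The controls themselves differed in CST1. With the empty vector its level was 0.149 times that in sc (95% interval 0.0571 to 0.331), a log2 ratio of -2.45 (-4.13 to -1.60) with 25 genes lower. CST1 was again the 1 cystatin called, beside 4.11% of all genes, of which 1.89% lower, as CST1, and 2.22% higher. The choice of control therefore bears on both other comparisons. Against sc, the library labelled DCBLD2 overexpression was 5.17-fold higher (3.79 to 7.18). Against the empty vector, shDCBLD2 was at 0.365 times its level with an interval of 0.0609 to 1.6, and the call was lost.

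**Figure D1:**
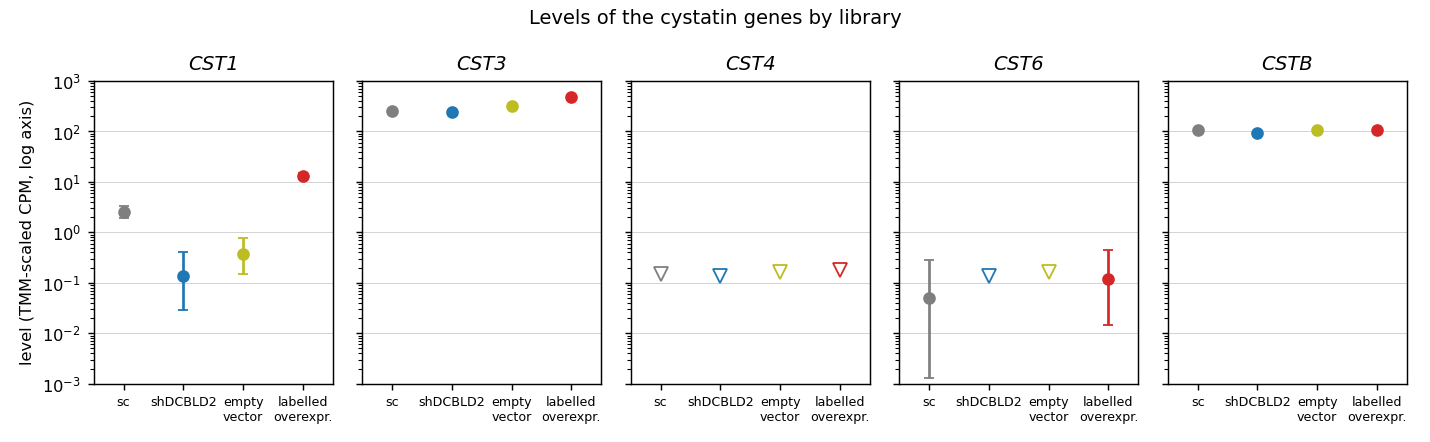
Level of each cystatin gene in each of the 4 libraries, in TMM-scaled CPM on a log axis; points are single libraries, bars are 95% Poisson counting intervals, and open triangles mark the level of 3 counts where a library had no count. CST1 ran from 0.139 to 13.2 CPM, CST3 and CSTB stayed within 1.94-fold and 1.16-fold, and CST4 had no count anywhere.

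Some genes typical of other cells were called higher in the library labelled DCBLD2 overexpression, and others in the same lists were not. Calls in these marker lists were counted without the level filter. Against the empty vector, 6.52% of the 28715 genes with a count were then called higher in that library and 3.52% lower. CDKN2A, at 9p21 in a region that A549 is known to have lost, had 0 counts in each of the other 3 libraries and 2104 here. The 3 listed 9p21 genes together had 0.46 CPM in sc, 1.53 in shDCBLD2, 0.599 in the empty vector library and 134 in the labelled overexpression library, and 3 of 3 were called higher there. Among them CDKN2B was under the filter, with 7 counts there and 0 elsewhere. MTAP had 9, 33, 11 and 104 counts in the same order of libraries. For 9 fibroblast-like markers the sums were 35.9, 56.6, 37.4 and 79.4 CPM, with 4 called higher and FAP at 0 in every library. POSTN, among those called with 42 counts against 0 in the empty vector library, was under the filter. Most of each sum was COL1A1, at 32.7, 54, 35.5 and 63.1 CPM and called in no comparison. For 8 salivary acinar-like markers the sums were 0.204, 0, 0 and 6.48 CPM. PIP, a secretory gland protein, had 104 counts in that library, and AMY1A, STATH, HTN1, HTN3, PRB1 and LPO had none anywhere. For 6 blood-like markers the sums were 7.57, 3.52, 14.3 and 21 CPM with PTPRC at 0. Most of each was CD14, which was not called in the labelled overexpression library against the empty vector. For 10 HEK293-like markers the sums were 336, 463, 265 and 272 CPM with STMN2 and SYT4 at 0. Of these 10, 3 were called higher and 1 lower in the labelled overexpression library. NEFM, a neurofilament gene, had 1, 4, 0 and 221 counts in the same order of libraries. With the empty vector taken at 3 counts, the labelled overexpression library was 81.9-fold higher in NEFM. The counting interval of that fold, from the counts themselves, began lower, at 66.1. Of the 7 A549-like markers, EPCAM and KRT19 were also called higher in the labelled overexpression library against the empty vector, at 2.33-fold and 2.895-fold. Both were called lower in shDCBLD2 against sc, as CST1 was, at 0.3684 and 0.4535 times. The rest of that list was called in no comparison. Markers of other cells were also called lower in shDCBLD2: COL1A2 (1 count against 17), PDGFRB (4 against 13) and CD14 (0.4724 times). COL1A2, with 0 counts in the empty vector library and 67 in the labelled overexpression library, shared all 3 calls of CST1. MTAP and NEFL were called higher in shDCBLD2, at 3.325-fold and 2.353-fold. Without the filter 4.43% of genes were called lower and 1.45% higher there. The part of the other cell types in the CST1 result was not tested. In these bulk libraries fewer cells of a type and less RNA per cell cannot be told apart.

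CST3, the gene of cystatin C, differed far less. It had 5094 counts in sc, 5252 in shDCBLD2, 5782 in the empty vector library and 7801 under the overexpression label, or 260 (253 to 268), 243 (237 to 250), 315 (307 to 323) and 473 CPM (462 to 483). The last library was the highest and shDCBLD2 the lowest, and no interval overlapped another. The range of 1.94-fold was wider than that of 62.2% of all genes.

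Against the empty vector, CST3 was 1.5-fold higher in the library labelled DCBLD2 overexpression (95% interval 1.45 to 1.55), a log2 ratio of 0.59 (0.54 to 0.63) that lies under the 2-fold threshold. Set against the median of all genes the log2 ratio was 0.63. In shDCBLD2 it was 0.935 times sc (0.900 to 0.972), and with the empty vector 1.21 times sc (1.17 to 1.26). The difference between the 2 control libraries was thus larger than that between shDCBLD2 and its own control. Against sc, the labelled overexpression library was 1.82-fold higher (1.75 to 1.88). A non-coding entry on the same strand, RP11-218C14.8, overlaps CST3 and held 7 to 11 counts per library.

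CSTB, the gene of the intracellular stefin B, was nearly level. It had 2100 counts in sc, 2030 in shDCBLD2, 1954 in the empty vector library and 1796 under the overexpression label, or 107 (103 to 112), 94.1 (90.1 to 98.3), 106 (102 to 111) and 109 CPM (104 to 114). Only shDCBLD2 stood below the other 3 libraries, whose intervals overlapped. The highest level was 1.16 times the lowest, and 3.16% of all genes had a smaller range.

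The labelled overexpression library was at 1.02 times the empty vector in CSTB (95% interval 0.958 to 1.09) and the empty vector at 0.992 times sc (0.932 to 1.06), so neither interval left out no change. In shDCBLD2 CSTB was at 0.877 times sc (0.824 to 0.932), a log2 ratio of -0.19 (-0.28 to -0.10), and 31.4% of genes had a lower ratio.

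**Figure D2:**
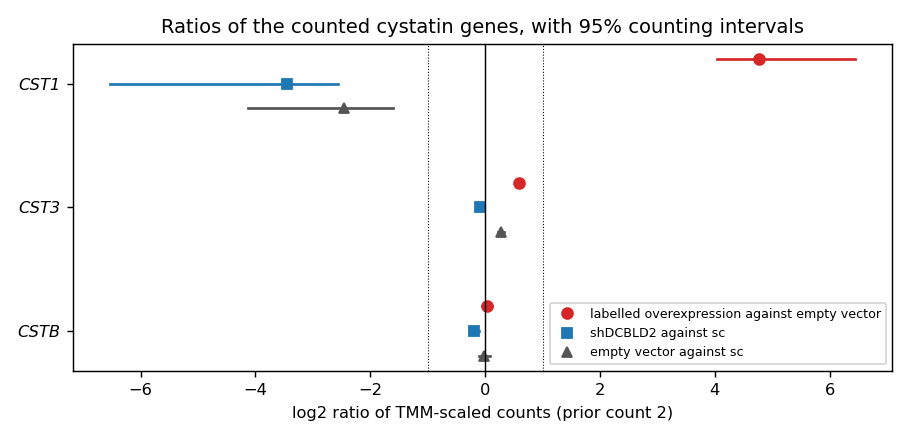
Log2 ratio of TMM-scaled counts (prior count 2) for the 3 counted cystatin genes in 3 comparisons, 1 library against another, with 95% counting intervals as bars and the 2-fold threshold as dotted lines. CST1 lay outside the threshold in all 3 comparisons, at 4.77, -3.45 and -2.45, and CST3 and CSTB lay inside it in all 3.

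CST4 and CST6 were not detectable, or nearly so, at this depth. CST4, which encodes cystatin S, had 0 counts in each of the 4 libraries. CST6, which encodes an inhibitor of legumain and of cathepsins V and L, had 1 count in sc, 0 in shDCBLD2, 0 in the empty vector library and 2 under the overexpression label. All of these are under the 3 counts that a count of 0 allows, so no fold is given. For CST4 a further limit is sequence, since 30.2% of the 50-base windows of its transcript occur unchanged in CST1 or CST2.

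The genome around each gene was read in the coordinates of the deposited table, whose build the table does not name. CST3 (20, 23608534 to 23619110), CST4 (20, 23666277 to 23669677) and CST1 (20, 23728190 to 23731905) lie on the minus strand of chromosome 20 in a cluster of cystatin genes. Of 22 listed cystatin family genes present, 15 lie on chromosome 20, and 11 of those 15 had no count in any library. CST3 took 98.8%, 99.8%, 99.9% and 97.1% of the counts of the chromosome 20 family in sc, shDCBLD2, the empty vector and the labelled overexpression library. Of the 5 entries within 100 kb of CST1, 4 had no count anywhere, and the exception was CST2.

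CST2, the gene of cystatin SA, had 3 counts in sc, 5 in shDCBLD2, 0 in the empty vector library and 13 under the overexpression label. With the empty vector taken at 3 counts, the last was 4.82-fold higher. The counting interval of the fold, from the counts themselves, began lower, at 3.39. With CST1, CST2 and CST4 summed, the log2 ratio of shDCBLD2 against sc was -2.56 (-4.15 to -1.79) in place of -3.45 for CST1 alone.

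CST6 (11, 65779312 to 65780976, plus strand) lies among counted genes. Of its 13 neighbours within 100 kb, 8 passed the level filter, among them BANF1, a chromatin-binding protein gene, with 5353, 7258, 6383 and 5174 counts in the order sc, shDCBLD2, empty vector and labelled overexpression. CATSPER1, the nearest, a sperm ion channel gene, had 28, 26, 60 and 33 counts and was the 1 neighbour called in any comparison, higher with the empty vector than in sc. Around CSTB (21, 45192393 to 45196326, minus strand), 4 of 7 neighbours passed the filter and none was called. PDXK, the pyridoxal kinase gene, had 12516, 13753, 13148 and 13396 counts, and RRP1, a ribosome biogenesis gene, had 910, 1381, 854 and 907.

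Levels of different genes were compared per length, in the deposited FPKM (fragments per kilobase of exonic gene size, relative to the library total). CST3 stood at 106, 97.4, 123 and 188 FPKM in sc, shDCBLD2, the empty vector and the labelled overexpression library. CSTB stood at 44.2, 37.9, 41.9 and 43.5 FPKM, and CST1 at 3, 0.16, 0.43 and 15.1 FPKM. The order CST3, CSTB, CST1 held in all 4 libraries, and CST4 and CST6 were below them at no more than 0.16 FPKM. The FPKM of CST3 was 2.41, 2.57, 2.94 and 4.32 times that of CSTB. The deposited size of CST3 is 2504 bases while its first coding transcript in GENCODE 29 has 873, and on transcript length the same ratios were 6.01, 6.41, 7.33 and 10.8.

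Summed over the 22 family genes, cystatin FPKM was 155 in sc, 136 in shDCBLD2, 166 in the empty vector library and 248 under the overexpression label. CST3 made up 68.7%, 71.7%, 74.3% and 75.6% of these sums, CSTB 28.5%, 27.9%, 25.3% and 17.5%, and CST1 1.94%, 0.118%, 0.259% and 6.07%. The labelled overexpression library thus held the largest sum and, within it, the smallest share of CSTB and the largest of CST1. None of the 17 family genes outside the 5 passed the level filter.

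The targets of the cystatins, 11 cysteine cathepsins and legumain, were read in the same comparisons. Of the 12 genes 11 passed the filter. Within the library labelled DCBLD2 overexpression 0 of these were called higher and 1 lower against the empty vector, beside 6.42% and 5.35% of all genes, with a median log2 ratio of 0.03 beside -0.04 over all genes. In shDCBLD2 0 were called higher and 1 lower against sc, beside 1.16% and 5.62%, with a median of -0.30 beside 0.01. Between the controls none was called, beside 4.11% of all genes, and the median was 0.30 with the empty vector against sc, beside -0.01. With 11 genes, 1 call is close to these shares.

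CTSV, a cathepsin closely related to cathepsin L, had 187 counts in sc, 167 in shDCBLD2, 267 in the empty vector library and 117 in the labelled overexpression library. It was highest with the empty vector, and the labelled overexpression library was at 0.487 times that level (95% interval 0.389 to 0.608). CTSS, a cathepsin of antigen-presenting cells, had 162, 66, 187 and 205 counts in the same order, and shDCBLD2 was at 0.370 times sc (0.273 to 0.495). The other targets named here were chosen after their values were seen. LGMN, the legumain gene, had 1662, 1432, 1623 and 2089 counts and the highest log2 ratio of the 11 in the labelled overexpression library, 0.52 (0.42 to 0.61).

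By length, CTSL was the most abundant target with 108, 114, 116 and 91.1 FPKM, followed by CTSZ with 91.2, 82.5, 86.7 and 89.5 FPKM and CTSB with 65, 52.7, 84.1 and 86.8 FPKM. The summed FPKM of the 12 targets was 326 in sc, 292 in shDCBLD2, 361 in the empty vector library and 356 in the labelled overexpression library. Cystatin FPKM divided by target FPKM was 0.476, 0.465, 0.46 and 0.696. The first 3 libraries were thus close to one another, and the library labelled DCBLD2 overexpression was above them. With CST3 alone set on its transcript length, the quotients were 1.09, 1.09, 1.1 and 1.68. The targets and the other cystatins kept their deposited sizes, so the rise follows from the change to CST3. These quotients therefore do not show whether cystatin or target RNA was in excess.

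**Figure D3:**
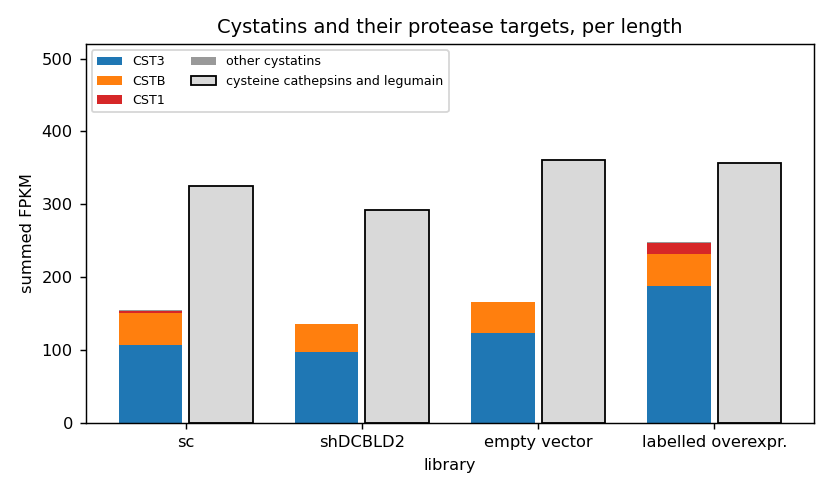
Summed FPKM per library for the cystatin family (left bar of each pair, stacked as CST3, CSTB, CST1 and the rest) and for the 12 cysteine protease targets (right bar), each bar a single library with no error. The cystatin sum was 248 in the library labelled DCBLD2 overexpression against 136 to 166 in the others, while the target sums lay between 292 and 361.

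As a yardstick for the compartment in which cathepsins work, 21 lysosomal genes that are not cysteine proteases were read the same way. Against the empty vector 0 were called higher and 1 lower in the labelled overexpression library, beside 6.42% and 5.35% of all genes, with a median log2 ratio of 0.21. The gene called was NPC1, a lysosomal cholesterol transporter, with 1354, 2367, 1922 and 587 counts in sc, shDCBLD2, the empty vector and that library. In shDCBLD2 against sc and with the empty vector against sc none was called, beside 6.78% and 4.11% of all genes, with medians of -0.21 and 0.15.

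Inhibitors of other protease classes, most of them against serine proteases, were read the same way. Of 30 listed genes 19 passed the filter. Within the library labelled DCBLD2 overexpression 7 were called higher and 0 lower against the empty vector, beside 6.42% and 5.35% of all genes, with a median log2 ratio of 0.46 that becomes 0.0595 over the 14 genes with a mean of at least 5 CPM. Of the 7, SERPINA1, SERPINI1 and PI3 passed the filter only through that library, with means of 0.707, 0.583 and 0.304 CPM over the other 3, so their calls there follow in part from the filter. In shDCBLD2 0 were called higher and 6 lower against sc, beside 1.16% and 5.62%, with a median of -0.36. With the empty vector 0 were called higher and 3 lower against sc, beside 2.22% and 1.89%, with a median of 0.15. All 3 genes called between the controls were also called in both other comparisons. SERPINA1 and PI3 were among these 3 and among the 6 called lower in shDCBLD2.

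SERPINA1, SPINT1, SLPI and PI3, 4 of the 19, shared both calls with CST1, higher in the labelled overexpression library and lower in shDCBLD2, beside 2.17% of all genes. Since SERPINA1 and PI3 passed the filter only through the labelled overexpression library, this count follows in part from the filter. SLPI, the secretory leukocyte protease inhibitor that blocks neutrophil elastase in airway fluid, had 216 counts in sc, 21 in shDCBLD2, 92 in the empty vector library and 1379 in the labelled overexpression library. The order of the 4 libraries was that of CST1, and here no interval overlapped another. Its log2 ratios were 4.03 (3.75 to 4.38) for the labelled overexpression library against the empty vector, -3.37 (-4.22 to -2.85) for shDCBLD2 against sc and -1.12 (-1.51 to -0.78) for the empty vector against sc.

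PI3, the gene of elafin, another elastase inhibitor of epithelia, had 13 counts in sc, 3 in shDCBLD2, 2 in the empty vector library and 150 in the labelled overexpression library. It was 83.4-fold higher in that library than with the empty vector, with a wide interval of 22.7 to 695 because the control holds 2 counts. SERPINA1, the gene of alpha-1-antitrypsin, had 30, 8, 4 and 62 counts and was 17.2-fold higher (6.4 to 65.2). SPINT1, an inhibitor of membrane serine proteases such as matriptase, had 30, 4, 34 and 128 counts and was 4.19-fold higher (2.85 to 6.30).

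The control library decided some of these calls. SLPI and SPINT1 were also called lower in shDCBLD2 against the empty vector, at 0.194 (0.115 to 0.315) and 0.1 times (0.0258 to 0.281) its level. PI3 at 1.28 times (0.146 to 15.3) and SERPINA1 at 1.7 times (0.456 to 7.72) were not, as CST1 was not. The marker levels of other cells given beside CST1 apply to these genes too, and their part was not tested.

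The remaining genes called in the list were called in 1 comparison each. SERPINF2, the gene of alpha-2-antiplasmin, had 132, 64, 138 and 198 counts and was at 0.440 times sc in shDCBLD2 (0.321 to 0.597), and 1.6-fold higher in the labelled overexpression library than with the empty vector (log2 ratio 0.67, 0.35 to 1.00), under the threshold. TFPI, which blocks the tissue factor pathway of clotting, had 721, 390, 1005 and 678 counts and was at 0.491 times sc (0.433 to 0.556). TFPI2, an inhibitor of plasmin and trypsin, had 1778, 1902, 1220 and 2407 counts and was 2.19-fold higher in the labelled overexpression library than with the empty vector (2.05 to 2.35). SERPINI1, the gene of neuroserpin, had 9, 9, 16 and 54 counts and was 3.75-fold higher there (2.12 to 7.03). SERPINF1 had 63, 66, 105 and 504 counts and was 5.34-fold higher in the labelled overexpression library than with the empty vector (4.32 to 6.65). In shDCBLD2 SERPINF1 was at 0.95 times sc (0.662 to 1.36).

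**Figure D4:**
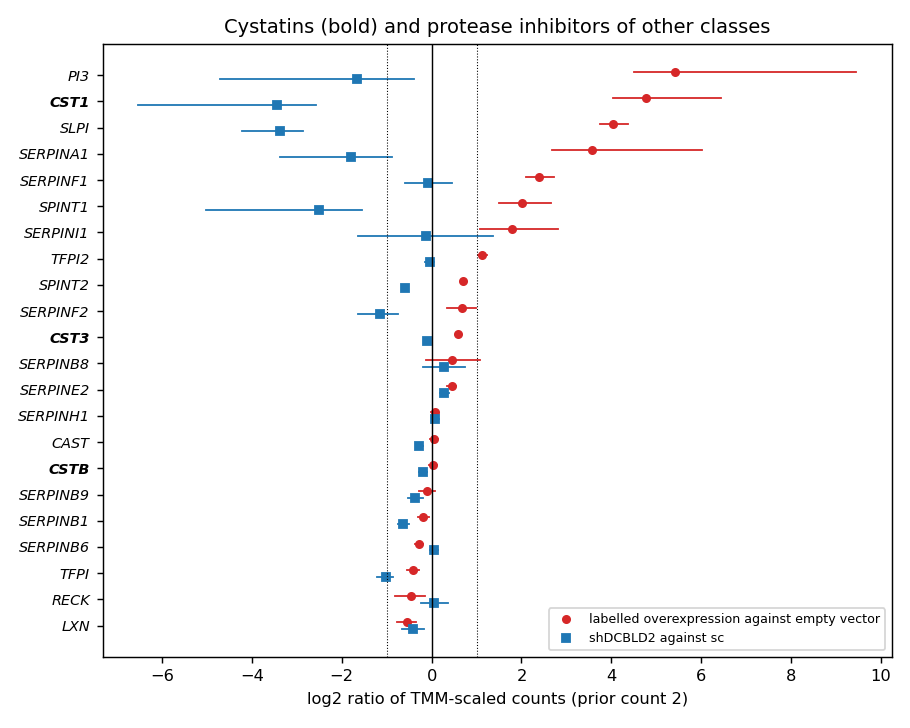
Log2 ratios (prior count 2) of the 3 counted cystatins, in bold, and the 19 counted inhibitors of other protease classes, for the labelled overexpression library against the empty vector (circles) and shDCBLD2 against sc (squares), with 95% counting intervals and dotted 2-fold lines. CST1 stands among PI3, SLPI and SERPINA1 at the top, on opposite sides of 0 in the 2 comparisons, while CST3 and CSTB lie between the dotted lines.

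Among the 10835 genes with a mean of at least 5 CPM, few came near the pattern of CST1 over the 4 libraries. Likeness was measured as the root-mean-square difference in log2 CPM after subtracting each gene's own mean over the 4 libraries. The 3 nearest genes were MUC5B at 0.209, FCGBP at 0.435 and USH1C at 0.486, and these were the 3 within 0.5 of CST1. For CST3, 5875 of 10834 genes lay within 0.5, and for CSTB 8936, whose own ranges were narrow.

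MUC5B, a gel-forming mucin of the airway, had 1147 counts in sc, 110 in shDCBLD2, 207 in the empty vector library and 3525 in the labelled overexpression library. FCGBP, the gene of a mucus protein that binds immunoglobulin G, had 604, 119, 140 and 2342 counts. USH1C, the gene of the scaffold protein harmonin of microvilli and hair cells, had 294, 30, 39 and 568 counts. In all 3 the labelled overexpression library was highest, sc next, then the empty vector, and shDCBLD2 lowest. The CST1 values had the same order, but its intervals for the empty vector (7 counts) and shDCBLD2 (3 counts) overlapped. For CST3 the nearest was FBXL8 at 0.010, with 112, 114, 128 and 171 counts, and for CSTB DCAF7 at 0.010, with 3401, 3330, 3229 and 2942. FBXL8 overlaps other genes in the table that together held more counts, and strandedness of counting was not given in the sources used here.

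**Figure D5:**
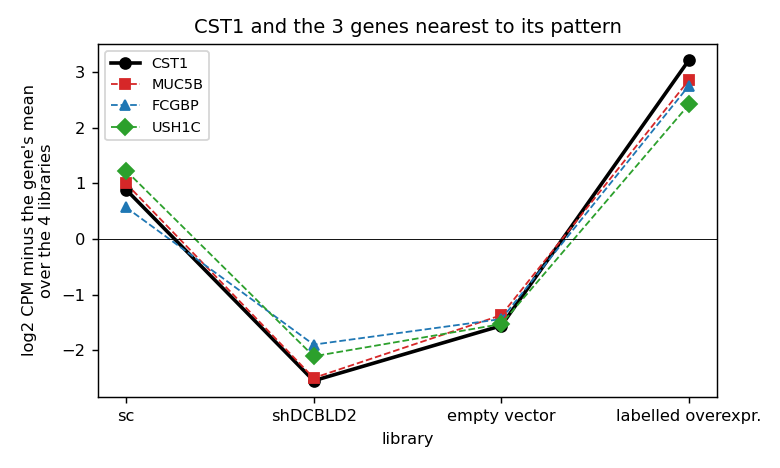
Log2 CPM of CST1 and of its 3 nearest genes in each library, each gene shown as its distance from its own mean over the 4 libraries; points are single libraries joined by lines for reading only. All 4 genes were above their mean in sc and in the library labelled DCBLD2 overexpression and below it in shDCBLD2 and the empty vector, with CST1 between -2.55 and 3.22.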

How the data were processed

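Poly(A) RNA libraries of transduced A549 cells, 1 per condition, were analysed. The authors deposited raw read counts per gene, and FPKM values that equal the counts divided by the deposited exonic gene size and the library total, scaled to kilobases and to 1000000 counts, to within 0.005. The deposited gene sizes and coordinates were used as given. The submitters' processing notes list mm9, a mouse build, for these human genes, and the aligner, counter, annotation and strandedness were not given in the sources used here. Counts were scaled with TMM factors (edgeR 4.0.16, R 4.3.3); DESeq2 1.42.0 gave size factors as an alternative. The rest ran in Python 3.11.15 (numpy 2.4.6, scipy 1.17.1, pandas 2.3.3, matplotlib 3.10.9). A prior count of 2 entered log2 ratios, whose 95% intervals are Clopper-Pearson intervals for the split of both counts; folds and their intervals used no prior, and CPM intervals are exact Poisson. Genes needed a mean CPM of at least 1. A level of 0 was read as up to 3 counts. For the 246 symbols on several entries, the entry with most counts was used. A listed protease inhibitor gene and a sequence stretch are not reported here. Scripts were tested on simulated data.

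The members and gene lists were chosen with earlier results of these data known. Genes named are the 5 cystatins, DCBLD2, called members of each list (the 3 highest and 3 lowest where over 6, with SERPINF1 added), genes within 100 kb, and the 3 genes nearest in pattern. Others are said to be chosen later or are markers. Sequences come from GENCODE 29 transcripts on GRCh38 and were aligned with Biopython 1.88; no coordinates were carried between builds. Alternatives were other scaling, prior counts, thresholds, filters, counts thinned to the smallest library total, the other control library, and CST1, CST2 and CST4 summed.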

Additional observations from a re-analysis of the deposited data

How the results depend on the processing

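No paired analysis was possible because each condition has 1 library and the labels give no replicate numbers, and for the same reason no library could be left out of a condition. The number of cystatins called was 1 in each comparison. At a 1.5-fold threshold it was 2 for the labelled overexpression library against the empty vector, where CST3 joined CST1. With a filter of mean CPM of at least 5 it was 0 in all 3 comparisons, because CST1 has a mean of 4.07 CPM, and with the empty vector as the control of shDCBLD2 it was 0. The median log2 ratio for the labelled overexpression library against the empty vector became 0.33 for the lysosome list with upper-quartile scaling, and for the other protease inhibitors 0.0595 at a mean CPM of at least 5 (14 genes). With the empty vector as control of shDCBLD2 the median was -0.70 for the cathepsins and -0.31 for the lysosome list. The order of levels per length was the same in 4 of 4 libraries on every scale tried.

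With the matched control, the log2 ratio of CST1 stayed between 4.39 and 5.02 for the labelled overexpression library against the empty vector. It stayed between -3.96 and -2.81 for shDCBLD2 against sc, and between -2.66 and -2.13 between the controls. With CST1, CST2 and CST4 summed, the ratio for shDCBLD2 against sc was -2.56. No called ratio of a cystatin changed direction, while PI3 and SERPINA1, called lower in shDCBLD2 against sc, were at log2 ratios of 0.19 and 0.56 against the empty vector, without a call. The number of all genes called in the 3 comparisons, 1644, 947 and 574, was 4273, 2307 and 1919 at a 1.5-fold threshold, 560, 315 and 118 at a 3-fold threshold, 2883, 1689 and 1118 without a filter, and 832, 397 and 180 at a mean CPM of at least 5. With the other control library it was 2382 for the labelled overexpression library and 1430 for shDCBLD2. Upper-quartile scaling left 483 genes lower in the labelled overexpression library in place of 747. Counting depth limits CST1 in shDCBLD2 (3 counts) and with the empty vector (7 counts), and all of CST4 and CST6; biological spread was not measured.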
